A study of Mus musculus with 6 samples.

Results

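Solute carriers are membrane proteins that move nutrients, ions, nucleotides, vitamins and metals across the plasma membrane and the membranes of organelles, and their symbols begin with Slc. The protein-coding genes with such a symbol whose transcript level averaged at least 1 TPM (transcript abundance corrected for transcript length and scaled to a fixed total) over 6 libraries were taken, which left 166 of the 369 such genes listed and of 55487 gene identifiers in all. The level chose the genes, so levels are given as a description. The rule did not use the difference between the groups, but it was set with earlier results of these data known. Because the mean runs over both groups, a gene can pass through 1 group alone. Slc40a1 passed in this way, at 0, 0.03 and 2.43 TPM in lymph node libraries and 2.14, 2.27 and 1.91 TPM in spleen libraries.

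The study set naive CD4+ T cells from the gut-draining mesenteric lymph nodes (mLN) against naive CD4+ T cells from the spleen. All mice were wild type, of strain C57BL6/J, and received no treatment, and both groups hold 3 libraries of polyadenylated RNA. The labels do not give the age of the mice, the markers used to sort naive cells, or whether replicates came from separate animals. The p-values therefore rest on the spread of these libraries alone, and that spread may be technical.

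Solute carriers are grouped into numbered families by sequence, and each family tends to share a substrate. The substrate classes used here were assigned by family number, with single-gene exceptions. A class can therefore hold genes of another substrate or another membrane. A naive T cell is quiescent and takes up little, and activation is known to raise the uptake of amino acids, glucose, iron and choline through carriers of these families. Several carriers work only in complexes, such as the amino acid exchangers of the Slc7 family that need the heavy chain Slc3a2 to reach the cell surface, and the Slc25 family sits mostly in the inner mitochondrial membrane.

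Expected counts summed to between 13205499 and 20054205 in mLN libraries and to between 14224966 and 17862485 in spleen libraries, and 3 counts correspond to 0.149 to 0.225 CPM (a gene's counts relative to the library's TMM-scaled total), for counting error only. Cd4 stood at 891 ± 12.4 CPM in mLN and 930 ± 45.1 CPM in spleen (SD, n = 3 each), and Cd8a at 3.83 ± 1.73 CPM in mLN and 1.92 ± 0.480 CPM in spleen. A list of 16 naive CD4 T cell genes summed to 9317 to 9522 CPM in mLN and 9899 to 10120 CPM in spleen, without overlap. Of these genes 4 were called higher in mLN and 7 lower, beside 16.1% and 13.5% of all genes tested (edgeR, as described below). Summed levels of markers of other cells differed by list. They were 0.225 to 1.69 CPM in mLN and 53.1 to 53.7 CPM in spleen for neutrophil genes, 23.2 to 29.1 CPM in mLN and 118 to 127 CPM in spleen for dendritic cell genes, and 348 to 376 CPM in mLN and 507 to 545 CPM in spleen for B cell genes. Stromal and endothelial genes summed to 203 to 218 CPM in mLN and 236 to 248 CPM in spleen. Only 1 of the 9 genes of that list passed the filter on counts, though, and 5 were at 0 in all libraries. The sum therefore rests mainly on 1 gene and does not measure such cells. The sum of NK and innate lymphoid genes went the other way, at 57.4 to 70.4 CPM in mLN and 46.4 to 53.0 CPM in spleen. Of 5 tested genes of that list, though, 1 was called higher in mLN and 4 were not called (edgeR, as described below). Their median log2 fold change, mLN minus spleen, was -0.90. The ranges of erythroid and CD8 T cell genes overlapped between the groups. The part of such cells in the carrier differences was not tested. In bulk samples such as these, fewer cells of a type and less RNA per cell cannot be told apart. The 166 genes took 0.513% to 0.517% of all TPM in mLN libraries and 0.419% to 0.426% in spleen libraries, and 0.808% to 0.824% of counts in mLN libraries and 0.738% to 0.748% in spleen libraries. A higher TPM was not particular to carriers, since the median of all genes tested was also 0.21 higher in mLN on log2 TPM plus 1.

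Carriers of mitochondria, choline, phosphate and zinc led the list by level. Slc25a3, which brings phosphate into mitochondria, averaged 331 TPM over the 6 libraries, and Slc25a5, which exchanges ADP for ATP across the inner membrane, averaged 326 TPM. Slc44a2, a choline transporter-like protein, followed at 277 TPM, Slc20a1, a phosphate importer, at 192 TPM, Slc39a7, which releases zinc from the endoplasmic reticulum, at 132 TPM, Slc12a7, a potassium and chloride cotransporter, at 121 TPM, and Slc28a2, which concentrates purine nucleosides, at 114 TPM. Slc9a3r1 at 240 TPM is a scaffold protein named after the exchanger it binds and carries no solute. It was placed with Slc4a1ap and Slc7a6os, the other genes that are only named after a carrier.

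The levels ran between 1.07 and 331 TPM, with 10 genes above 100 TPM, 91 from 10 to 100 TPM and 65 below 10 TPM, and a median of 13.4 TPM. The 10 highest genes took 41.8% of the summed TPM of the 166. Just inside the limit of 1 TPM were Slc16a3 at 1.21, Slc37a2 at 1.18, Slc3a1 at 1.18, Slc43a3 at 1.08 and Slc39a2 at 1.07 TPM, and just outside were Slc11a1 at 0.842, Slc23a3 at 0.808, Slc18a2 at 0.78, Slc1a4 at 0.745 and Slc7a7 at 0.72 TPM. The list drew on 42 of 48 numbered families. Of the 203 genes below the limit, 110 were at 0 in all 6 libraries.

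**Figure D1:**
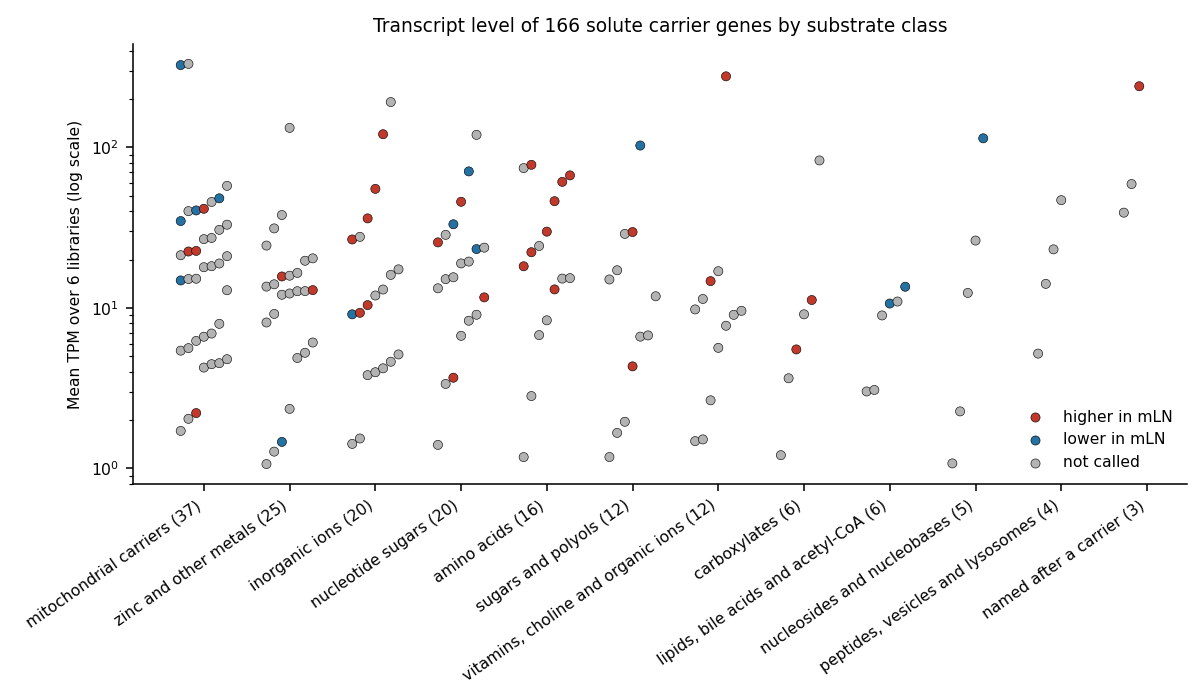
Mean TPM over 6 libraries (vertical axis, log scale) of the 166 genes, 1 point per gene, by substrate class with the number of genes in brackets. Red points were called higher in mLN, blue points lower in mLN and grey points were not called. The 10 genes above 100 TPM are spread over 8 classes, and called genes lie between 1.46 and 326 TPM.

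The comparison asks how transport genes differ between naive CD4+ T cells of these organs. Of the 166 genes, all of which passed the filter on low counts, 31 were called higher in mLN and 14 lower in mLN by edgeR's quasi-likelihood test at a Benjamini-Hochberg adjusted p under 0.05 over the 12486 genes tested. The 45 calls are 27.1% of the 166, beside 29.6% of all genes tested, so carriers were called about as often as other genes. By direction, 18.7% of the carriers were called higher in mLN, beside 16.1% of all genes, and 8.43% were called lower in mLN, beside 13.5% of all genes. The median log2 fold change, mLN minus spleen, was 0.09 over the carriers and -0.01 over all genes tested.

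Most differences were small. The called genes had a median log2 fold change of 0.39 where higher in mLN and of -0.38 where lower in mLN, and only Slc25a33 (higher) and Slc40a1 (lower) reached 2-fold. Slc40a1 passed the TPM limit and the filter on counts through the spleen group alone, so its lower call is a description. Of the 45 called genes, 43 had groups that did not overlap in CPM, as did 25 of the 121 uncalled genes, beside 41.8% of all genes tested. The median standard error of the uncalled genes was 0.15 on the log2 scale, so a difference of that size was not detectable in a typical member. Larger differences could go uncalled as well.

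The split of 31 higher and 14 lower changed with the scaling. It was 24 and 17 with upper-quartile factors, 21 and 16 with the trend on transcript length removed, 32 and 2 on log2 TPM plus 1, where the median of all genes was shifted up in mLN to 0.21, and 6 and 8 after that shift was taken out by centring each library. With a pseudocount of 0.1 the centred TPM values gave 6 and 7. The split over all 12486 genes tested moved too, from 2010 higher and 1689 lower to 1692 and 2046 with upper-quartile factors. It was 1462 and 1400 with the length trend removed, 2757 and 384 on log2 TPM plus 1, and 798 and 947 on centred TPM. Class counts by scaling given below stand beside these same splits. Over all genes tested, leaving out 1 library gave 1494 to 1961 higher and 1297 to 1681 lower. Leaving out spleen replicate 1 or spleen replicate 2 left 19 genes higher, and leaving out mLN replicate 1 left 8 genes lower, as against 9 without mLN replicate 3, without spleen replicate 1 or without spleen replicate 2. Log2 fold change and transcript length had a Spearman correlation of 0.33 over the carriers and 0.37 over all genes tested, given as a description. The median transcript length was 3282 nt for genes called higher, 2036 nt for genes called lower and 2427 nt for uncalled genes.

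**Figure D2:**
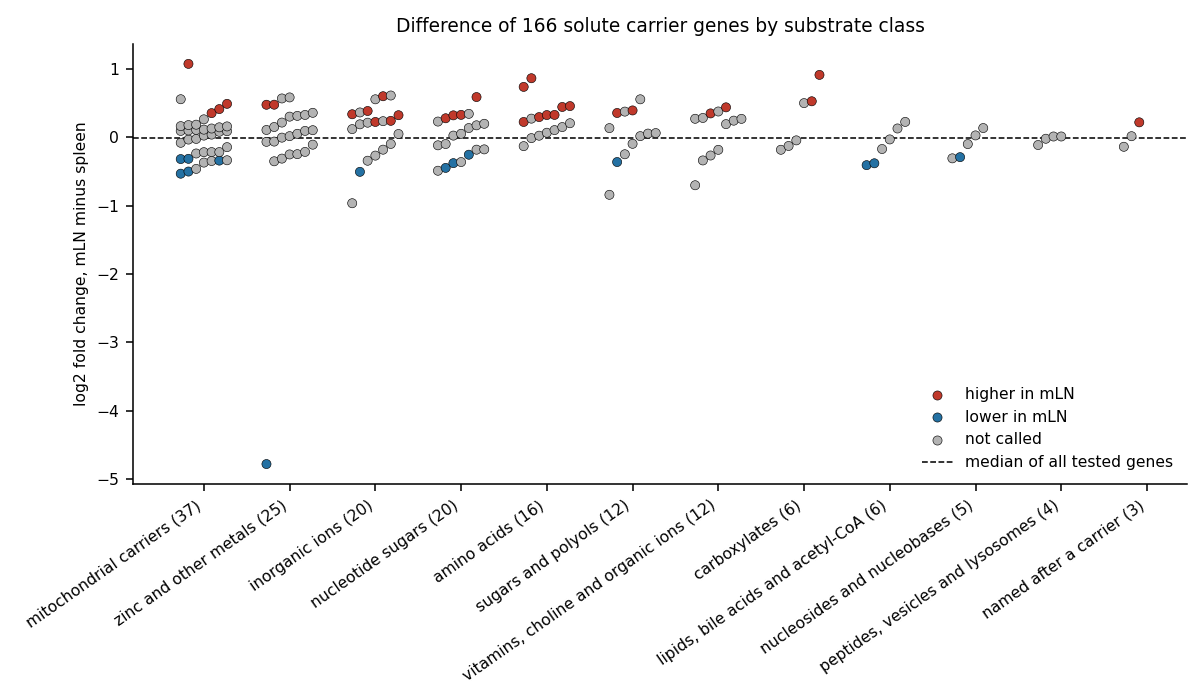
Log2 fold change, mLN minus spleen (vertical axis), of the 166 genes by substrate class, 1 point per gene, coloured by call as higher in mLN, lower in mLN or not called. The dashed line is the median of all genes tested at -0.01. Amino acid carriers hold 8 red points and no blue point, and Slc40a1 lies alone at -4.78.

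Carriers of amino acids were the class with the most calls in 1 direction: 8 of 16 were called higher in mLN, beside 16.1% of all genes, and 0 lower, beside 13.5%. The median log2 fold change was 0.25, beside -0.01 over all genes. At an unadjusted p under 0.05 (edgeR), and by DESeq2 or limma-voom with adjustment, 0 were lower as well, and the same was true of every other class count of 0 given below. The 8 were Slc7a5, Slc7a1, Slc38a1, Slc6a6, Slc36a1, Slc38a10, Slc3a2 and Slc1a5. Their summed level was 570 ± 15.1 TPM in mLN and 398 ± 12.6 TPM in spleen for the 16 genes together (SD, n = 3 each), on the TPM scale, on which the median of all genes was also shifted up in mLN. None of these 16 was called lower in mLN under any of the alternatives run, and the number called higher ran between 2 on centred TPM values and 9. With the length trend removed 6 were higher at a median of 0.15, beside 1462 of 12486 genes tested. With the GC trend removed 5 were higher at a median of 0.17, beside 2232. The median transcript length of the class, 3645 nt, was the longest of the classes.

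Slc7a5, the light chain of the leucine and large neutral amino acid exchanger (chr8:121881150-121907694, GRCm38), stood at 58.9, 61.4 and 66.1 CPM in mLN replicates 1, 2 and 3, against 35.7, 30.8 and 35.8 CPM in spleen replicates 1, 2 and 3. Every mLN library lay above every spleen library. The gene was 1.82-fold higher in mLN, a log2 fold change of 0.87 ± 0.10 (standard error, as for all that follow; edgeR adjusted p = 1.55e-06). Slc3a2, the heavy chain that Slc7a5 pairs with (chr19:8706882-8723369), stood at 71.6, 73.0 and 77.7 CPM in mLN, against 65.3, 57.7 and 58.1 CPM in spleen. The groups did not overlap, but the log2 fold change was smaller, at 0.30 ± 0.09 (edgeR adjusted p = 0.0122).

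Slc7a1, which imports the cationic amino acids arginine and lysine (chr5:148327410-148399904), stood at 111.4, 110.4 and 116.2 CPM in mLN, against 68.1, 65.3 and 69.1 CPM in spleen. It had the smallest p of the class, with libraries of each group close together and far from the other group, and a log2 fold change of 0.74 ± 0.08 (edgeR adjusted p = 5.88e-07). Slc38a1, a sodium-coupled importer of glutamine and other neutral amino acids (chr15:96571418-96642913), stood at 191.7, 213.9 and 203.9 CPM in mLN, against 149.9, 140.4 and 153.3 CPM in spleen. Its groups were also apart, at a log2 fold change of 0.46 ± 0.07 (edgeR adjusted p = 3.27e-05). Slc6a6, the taurine transporter (chr6:91684053-91759066), stood at 101.3, 105.7 and 102.6 CPM in mLN, against 72.0, 79.8 and 75.5 CPM in spleen. All its mLN libraries were higher, by 0.45 ± 0.08 on the log2 scale (edgeR adjusted p = 0.000233).

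The remaining calls of the class were smaller. Slc36a1, a proton-coupled exporter of amino acids from lysosomes, stood at 54.6, 52.8 and 50.1 CPM in mLN, against 40.9, 42.9 and 41.4 CPM in spleen, without overlap and with a log2 fold change of 0.33 ± 0.10 (edgeR adjusted p = 0.0117). Slc1a5, a glutamine exchanger, stood at 131.8, 137.7 and 150.8 CPM in mLN, against 110.3, 119.6 and 129.5 CPM in spleen. Its lowest mLN library lay only just above its highest spleen library, and its log2 fold change was 0.23 ± 0.08 (edgeR adjusted p = 0.0359). Slc38a10 differed by 0.33 ± 0.09 on the log2 scale (edgeR adjusted p = 0.0115), with mLN replicate 1 at 112.5 CPM below spleen replicate 3 at 114.8 CPM.

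Close relatives of these genes were not called. Slc38a2, which carries neutral amino acids as Slc38a1 does, had a log2 fold change of 0.11 ± 0.07 (edgeR adjusted p = 0.26), with overlapping groups. With the GC trend removed Slc38a2 had 0.22 and was called (adjusted p = 0.000448), and with the length trend removed it had -0.09 (adjusted p = 0.326). Slc7a6, another light chain that pairs with Slc3a2, had 0.07 ± 0.10, Slc43a2, an exporter of large neutral amino acids, had 0.15 ± 0.09, and Slc38a9, the lysosomal arginine sensor of the mTORC1 kinase, had -0.13 ± 0.12. Whether Slc38a1 differed more than Slc38a2, or Slc7a5 more than Slc3a2, was not tested. Without spleen replicate 2 the class held 5 higher calls; Slc1a5 was lost without mLN replicates 2 or 3 or spleen replicates 1 or 2 (adjusted p up to 0.195), Slc38a10 without mLN replicate 2 or spleen replicates 1 or 2 (up to 0.0901), Slc3a2 without mLN replicate 3 or spleen replicate 2 (up to 0.0833) and Slc36a1 without mLN replicate 1 (0.0624), each by edgeR.

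**Figure D3:**
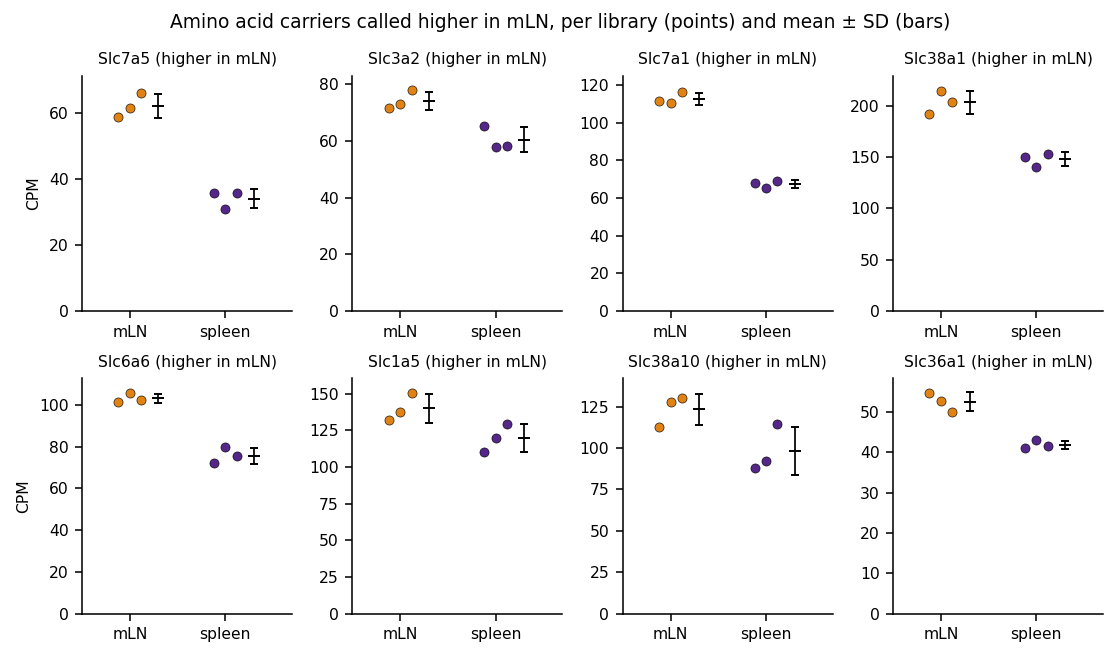
CPM (vertical axis, from 0) of the 8 amino acid carriers called higher in mLN, with 1 point per library and a bar for the mean ± SD of 3 libraries, mLN on the left and spleen on the right. The points of Slc7a5 and Slc7a1 are furthest apart, with mLN means of 62.1 and 113 CPM, and those of Slc38a10 overlap.

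Start sites of 4 amino acid carriers called higher in mLN are in the RefSeq table (GRCm38.p6), and promoters of 2 of these are shown as examples. Each runs from 250 bases before to 50 bases after the listed start. They lie at chr5:148399855-148400154 on the minus strand for Slc7a1 and at chr11:55204090-55204389 on the plus strand for Slc36a1. Capitals mark matches, on either strand, to CACGTG (the E-box, bound by Myc among other factors), TGATGNAA (the element bound by Atf4 with a C/EBP partner, which is known to drive amino acid genes under starvation) or TATAA.
Slc7a1: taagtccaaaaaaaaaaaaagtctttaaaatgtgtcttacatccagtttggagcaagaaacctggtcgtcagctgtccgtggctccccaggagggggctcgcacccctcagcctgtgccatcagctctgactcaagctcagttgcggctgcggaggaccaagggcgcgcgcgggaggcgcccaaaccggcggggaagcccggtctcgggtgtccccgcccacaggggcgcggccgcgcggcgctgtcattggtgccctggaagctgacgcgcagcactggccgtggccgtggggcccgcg
Slc36a1: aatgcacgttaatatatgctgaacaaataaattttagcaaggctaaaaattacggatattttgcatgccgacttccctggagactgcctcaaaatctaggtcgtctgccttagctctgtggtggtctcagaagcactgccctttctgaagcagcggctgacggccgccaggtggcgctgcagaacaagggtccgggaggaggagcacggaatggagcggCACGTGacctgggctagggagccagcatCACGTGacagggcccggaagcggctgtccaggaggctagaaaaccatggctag
The Slc7a1 window held no match. The Slc36a1 window held 2 matches to CACGTG, beginning 31 and 3 bases before the RefSeq start. CACGTG was found in 10.5% of the 8541 promoters of tested genes in the table, in 17 of 124 promoters of the carriers (13.7%) and in 5 of 21 promoters of carriers called higher in mLN. Among the 4 amino acid carriers called higher, Slc36a1 was the only 1 with a match. TGATGNAA was found in 2.17% of all promoters and in 0 of 12 promoters of amino acid carriers. A match is a run of letters and not a measured binding site.

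Genes in the class of mitochondrial carriers went both ways: 4 of 37 were called higher in mLN and 5 lower, close to or below the 16.1% and 13.5% of all genes. The 5 include Slc25a17, a carrier of peroxisomes. Their median log2 fold change was 0.04. The lower calls included both adenine nucleotide carriers on the list. Slc25a5 (chrX:36795651-36798807, GRCm38), the widely expressed exchanger of ADP and ATP, stood at 200.6, 199.7 and 192.5 CPM in mLN, against 277.6, 286.3 and 292.4 CPM in spleen. The groups were far apart, and the log2 fold change was -0.53 ± 0.06, a ratio of 0.692 (edgeR adjusted p = 1.17e-06). Slc25a4 (chr8:46206797-46211284), the exchanger best known from heart and muscle, stood at 49.9, 42.0 and 56.8 CPM in mLN, against 71.6, 67.0 and 72.3 CPM in spleen. Its mLN libraries varied more than its spleen libraries and still lay below all of them, with a log2 fold change of -0.50 ± 0.10 (edgeR adjusted p = 0.00069). Both genes kept the call without each library in turn, while on log2 TPM plus 1, where most genes were shifted up in mLN, Slc25a4 was not called (-0.22, adjusted p = 0.247, limma).

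Slc25a3, the phosphate carrier that works beside these exchangers in ATP synthesis, stood at 332.3, 332.6 and 334.0 CPM in mLN, against 311.5, 311.4 and 315.0 CPM in spleen. Its libraries were closely grouped and did not overlap, but the difference of 0.09 ± 0.06 on the log2 scale did not pass the test (edgeR adjusted p = 0.242). With the length trend removed it was 0.20 and with the GC trend removed 0.16, and both of these passed (adjusted p = 0.00924 and 0.00235).

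The start sites of Slc25a5 and Slc25a4 are shown because the genes encode closely related exchangers and both were lower in mLN. The windows are at chrX:36795347-36795646 on the plus strand and chr8:46211013-46211312 on the minus strand, in the same build and with the same marks.
Slc25a5: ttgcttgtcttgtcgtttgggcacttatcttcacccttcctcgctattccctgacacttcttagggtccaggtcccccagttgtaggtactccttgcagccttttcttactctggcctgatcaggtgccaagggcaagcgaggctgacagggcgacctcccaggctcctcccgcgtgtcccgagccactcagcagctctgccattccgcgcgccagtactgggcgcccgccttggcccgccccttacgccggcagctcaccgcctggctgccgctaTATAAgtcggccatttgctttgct
Slc25a4: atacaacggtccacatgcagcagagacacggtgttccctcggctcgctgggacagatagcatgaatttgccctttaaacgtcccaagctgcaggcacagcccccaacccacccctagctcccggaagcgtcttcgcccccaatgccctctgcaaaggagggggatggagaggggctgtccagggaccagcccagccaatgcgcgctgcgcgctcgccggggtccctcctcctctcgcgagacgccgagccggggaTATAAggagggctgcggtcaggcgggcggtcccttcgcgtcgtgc
Each window held 1 match to TATAA, which begins 26 bases after the RefSeq start of Slc25a5 and 5 bases after that of Slc25a4. In the GENCODE annotation Slc25a5 starts further downstream, and the match is 28 bases before that start. In Slc25a4 it is 227 bases after the GENCODE start. TATAA was found in 12.1% of all 8541 promoters, in 17 of 124 promoters of carriers (13.7%), in 5 of 12 promoters of carriers called lower in mLN (Slc25a4, Slc25a5, Slc35b1, Slc35b3 and Slc4a7) and in 0 of 21 promoters of carriers called higher. This motif was chosen after the sequences had been seen, so the counts are a description.

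Among mitochondrial carriers called higher, Slc25a22, which imports glutamate, stood at 59.5, 55.5 and 60.9 CPM in mLN, against 37.3, 37.8 and 50.1 CPM in spleen. Spleen replicate 3 lay closer to the mLN libraries than to the other spleen libraries, though below them, and the log2 fold change was 0.49 ± 0.11 (edgeR adjusted p = 0.00185). Slc25a37, mitoferrin 1, which brings iron into mitochondria for heme and iron-sulfur clusters, stood at 93.4, 88.7 and 89.4 CPM in mLN, against 64.9, 69.9 and 68.7 CPM in spleen. It was higher in all mLN libraries, by 0.41 ± 0.08 on the log2 scale (edgeR adjusted p = 0.000531), and with the length trend removed it had 0.21 and was not called (adjusted p = 0.0643). Slc25a33, a pyrimidine nucleotide carrier, had the largest positive fold change of the 166 at 2.11-fold but a low level, with 4.17, 3.98 and 2.63 CPM in mLN, against 1.27, 2.05 and 1.75 CPM in spleen (log2 fold change 1.08 ± 0.40, edgeR adjusted p = 0.0495). It lost the call without any 1 library except mLN replicate 3, with adjusted p up to 0.162.

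The other lower calls of the family were Slc25a17, a nucleotide and cofactor carrier of peroxisomes, at -0.32 ± 0.10, Slc25a40, a glutathione carrier, at -0.34 ± 0.13, and Slc25a45 at -0.31 ± 0.10 on the log2 scale (edgeR adjusted p = 0.024, 0.0486 and 0.0235). On log2 TPM plus 1 these genes had positive log2 fold changes of 0.12, 0.07 and 0.04, none of which passed the test. Slc25a17 and Slc25a40 were lost without mLN replicates 1 or 3 or spleen replicates 1 or 2 (adjusted p up to 0.0741 and 0.185), and Slc25a45 without mLN replicates 1 or 2 or spleen replicates 2 or 3 (up to 0.103). The family had 2 lower calls without mLN replicate 1 or spleen replicate 2 and 3 without mLN replicate 3 or spleen replicate 1, and 2 higher calls without mLN replicate 2 or spleen replicate 1. By scaling, it had 3 higher and 7 lower calls with upper-quartile factors, 5 and 1 on log2 TPM plus 1, and 0 and 2 on centred TPM.

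Carriers of inorganic ions were called higher in mLN for 6 of 20 genes, beside 16.1% of all genes, and lower for 1, beside 13.5%. Their median log2 fold change was 0.22, and some of the genes that set cell pH and volume were among those called. Slc4a7, which brings sodium and bicarbonate into the cell and so raises pH (chr14:14702279-14799940), stood at 32.7, 33.9 and 26.4 CPM in mLN, against 46.6, 40.8 and 44.2 CPM in spleen. It was the lower call of the class, at -0.50 ± 0.12 on the log2 scale (edgeR adjusted p = 0.00221), and the groups did not overlap.

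Slc4a2, which exchanges chloride for bicarbonate, was higher in mLN by 0.34 ± 0.09, and Slc12a7 by 0.23 ± 0.06 on the log2 scale (edgeR adjusted p = 0.00467 and 0.00804). Slc12a7 stood at 331.9, 357.4 and 365.4 CPM in mLN, against 290.1, 291.7 and 320.1 CPM in spleen, so the groups were apart by a narrow margin. Slc20a1, the phosphate importer and by TPM the highest of the class, stood at 267 ± 9.45 CPM in mLN and 258 ± 13.3 CPM in spleen (SD, n = 3 each) and was not called (log2 fold change 0.05 ± 0.06, edgeR adjusted p = 0.603). Reads of Slc4a2 and of Fastk on the other strand could mix, since 13.7% of its exon bases overlap and the strand setting of the counting is not given in the sources used here. With the GC trend removed Slc4a2 had 0.12 and was not called (adjusted p = 0.253). Slc12a7 was lost without spleen replicates 1 or 2 (edgeR adjusted p up to 0.0814) and with the length trend removed (0.09, adjusted p = 0.3), and the class had 3 higher calls without mLN replicate 1 or spleen replicate 3, 3 higher and 2 lower with the length trend removed, and 1 higher and 1 lower on centred TPM.

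Among carriers of carboxylates, Slc16a6 and Slc16a10 of 6 genes were called higher in mLN and 0 lower, beside 16.1% higher and 13.5% lower of all genes. Slc16a6, a member of the monocarboxylate family (chr11:109450855-109473598), stood at 30.5, 31.7 and 29.5 CPM in mLN, against 20.9, 14.3 and 13.6 CPM in spleen. Spleen replicate 1 was the highest of its group and still below all mLN libraries, and the log2 fold change of 0.91 ± 0.15 was the second highest positive value among called genes (edgeR adjusted p = 9.57e-05). Exons of Amz2 on the other strand cover 21.5% of its exon bases. Slc16a10, which carries aromatic amino acids, was higher by 0.53 ± 0.16 on the log2 scale, with 21.5, 20.6 and 15.7 CPM in mLN, against 13.2, 13.4 and 13.4 CPM in spleen (edgeR adjusted p = 0.0169). It was lost without mLN replicates 1 or 2 or spleen replicates 1 or 2 (adjusted p up to 0.0946).

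The carriers of lactate were not called. Slc16a1 stood at 25.0, 32.4 and 26.2 CPM in mLN, against 29.5, 31.0 and 30.5 CPM in spleen, and Slc16a3, the carrier linked to glycolytic cells, at 1.48 ± 0.628 CPM in mLN and 1.69 ± 0.226 CPM in spleen (SD, n = 3 each). Both genes had overlapping groups. Slc16a5, the highest of the class by TPM, had a log2 fold change of -0.04 ± 0.08.

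Sugar carriers showed 2 higher and 1 lower call among 12 genes, close to or below the 16.1% higher and 13.5% lower of all genes. The glucose importers Slc2a1 and Slc2a3 were not called, with 32.0 ± 4.17 CPM in mLN and 30.8 ± 3.84 CPM in spleen for Slc2a1, and with 48.2 ± 4.27 CPM in mLN and 43.9 ± 3.41 CPM in spleen for Slc2a3 (SD, n = 3 each). Their log2 fold changes were 0.06 ± 0.13 and 0.14 ± 0.10. Slc50a1, a sugar carrier of the SWEET family (chr3:89268246-89270570), stood at 58.0, 50.7 and 59.8 CPM in mLN, against 72.3, 76.0 and 68.4 CPM in spleen. It was lower in all mLN libraries, at -0.36 ± 0.09 on the log2 scale (edgeR adjusted p = 0.00397). Slc37a1, a glucose 6-phosphate carrier, was higher by 0.36 ± 0.09 and Slc5a3, the myo-inositol importer, by 0.39 ± 0.12 (edgeR adjusted p = 0.00433 and 0.0154). Slc5a3 was lost without mLN replicate 2 or spleen replicate 3 (adjusted p up to 0.112). With the length trend removed neither Slc5a3 (0.05, adjusted p = 0.824) nor Slc50a1 (-0.14, adjusted p = 0.258) was called, and on centred TPM the class had 0 higher calls.

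Nucleoside carriers had 1 call among 5 genes, a lower call, beside 13.5% lower of all genes. Slc28a2 (chr2:122426477-122461137), at 114 TPM by far the highest of the class, stood at 214.2, 233.4 and 216.2 CPM in mLN, against 279.4, 286.3 and 245.1 CPM in spleen. All mLN libraries were lower, and the log2 fold change was -0.29 ± 0.07 (edgeR adjusted p = 0.00267). Slc29a1, the equilibrative nucleoside carrier of the plasma membrane, had a log2 fold change of 0.03 ± 0.12 and Slc29a3, that of lysosomes, of 0.14 ± 0.10, and neither was called.

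Carriers of nucleotide sugars and related Golgi and endoplasmic reticulum substrates had 4 higher and 3 lower calls among 20 genes. These counts are close to the 16.1% higher and 13.5% lower of all genes. Slc35b1, which exchanges ATP for ADP across the membrane of the endoplasmic reticulum, stood at 20.1, 18.8 and 19.8 CPM in mLN, against 26.0, 26.5 and 27.7 CPM in spleen. The groups did not overlap, at -0.45 ± 0.13 on the log2 scale (edgeR adjusted p = 0.00996). Slc35b3, a carrier of the sulfate donor PAPS, was lower, at -0.25 ± 0.08, as was Slc35a5, at -0.38 ± 0.12 (edgeR adjusted p = 0.0229 and 0.0217). Slc35e1 and Slc35e2, whose substrates are not settled, were higher by 0.33 ± 0.08 and 0.32 ± 0.10, and Slc35c1, which brings GDP-fucose into the Golgi, by 0.28 ± 0.09 (edgeR adjusted p = 0.00459, 0.0136 and 0.0191). Slc35a4, the highest of the class at 120 TPM, was not called, although with the length trend removed it had 0.41 and was (adjusted p = 0.000847).

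The calls of this class changed with the scaling and with the libraries used. It had 1 higher and 2 lower calls with the length trend removed, 4 and 0 on log2 TPM plus 1, and 0 and 2 on centred TPM. Without spleen replicate 2 it had 1 higher call, without mLN replicate 1, mLN replicate 3 or spleen replicate 1 it had 2, and without mLN replicate 1 or spleen replicate 1 it had 1 lower call. Slc35b1 and Slc35e1 kept their calls without each library in turn and lost them with the length trend removed (-0.26 and 0.16, adjusted p = 0.150 and 0.176). Slc35a5 had a log2 fold change of 0.18 on log2 TPM plus 1 (adjusted p = 0.546, limma). Slc35b3 was lost without mLN replicate 1 or spleen replicate 1 (edgeR adjusted p up to 0.0902), Slc35a5 without mLN replicates 1 or 3 or spleen replicates 1 or 2 (up to 0.108), Slc35e2 without mLN replicate 1 or spleen replicates 2 or 3 (up to 0.064) and Slc35c1 without mLN replicate 3 or spleen replicates 1 or 2 (up to 0.122).

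Among carriers of vitamins, choline and organic ions, 2 of 12 were called higher in mLN and 0 lower. Of all genes, 16.1% were higher and 13.5% lower, so the higher calls were about as frequent as elsewhere. Slc44a2 (chr9:21320698-21355028) stood at 583.7, 572.7 and 585.3 CPM in mLN, against 463.5, 457.6 and 444.5 CPM in spleen. Both groups were tight and far apart, with a log2 fold change of 0.35 ± 0.05 (edgeR adjusted p = 4.26e-05). Slc19a1, the reduced folate carrier, was higher by 0.44 ± 0.15 on the log2 scale, with 18.5, 23.0 and 21.9 CPM in mLN, against 14.7, 14.5 and 17.6 CPM in spleen (edgeR adjusted p = 0.0327). It was lost without mLN replicates 2 or 3 or spleen replicates 1 or 2 (adjusted p up to 0.13), which leaves Slc44a2 as the only call of the class in each of these cases. Slc23a2, a vitamin C importer, had 0.19 ± 0.09 and was not called (edgeR adjusted p = 0.107).

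Metal carriers had 2 higher calls and 1 lower call among 25 genes, below the 16.1% higher and 13.5% lower of all genes. Slc41a1, a magnesium carrier (chr1:131827493-131848865), stood at 57.7, 59.2 and 61.7 CPM in mLN, against 39.4, 46.0 and 42.9 CPM in spleen. Its groups were apart, at a log2 fold change of 0.48 ± 0.10 (edgeR adjusted p = 0.000604). Slc39a3, a zinc importer, stood at 31.6, 33.3 and 37.9 CPM in mLN, against 21.6, 23.4 and 28.7 CPM in spleen, at 0.48 ± 0.13 (edgeR adjusted p = 0.00749), and it was lost without spleen replicate 1 (adjusted p = 0.0515). Slc39a7 had 0.22 ± 0.09 with overlapping groups and was not called (edgeR adjusted p = 0.0808). It was called without spleen replicate 3 (0.33, adjusted p = 0.00392), with the length trend removed (0.27, adjusted p = 0.0275) and with no filter on low counts (0.21, adjusted p = 0.0275). It was also called with the replicate number as a block (0.22, edgeR adjusted p = 0.000181) and on log2 TPM plus 1 (0.47, limma adjusted p = 0.0316). With the GC trend removed it had -0.0047 (adjusted p = 0.963), and 80.7% of its exon bases lie within Gm20427 on the same strand. The class had 3 higher and 4 lower calls with the length trend removed, where its median log2 fold change was -0.06, against 0.09 as first given. It had 1 higher and 2 lower calls with the GC trend removed, 5 and 0 on log2 TPM plus 1, 1 and 0 on centred TPM, and 4 and 1 without spleen replicate 3. The zinc carriers Slc30a5 and Slc30a9 had log2 fold changes of -0.0034 and 0.02.

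Slc40a1, ferroportin, the iron exporter that red pulp macrophages of the spleen use to return iron to the blood (chr1:45908068-45926523), had the largest difference of the 166 genes. It had 0, 1 and 9 expected counts in mLN libraries, against 79, 105 and 80 in spleen libraries, which are 0, 0.0751 and 0.446 CPM in mLN and 5.59, 5.96 and 4.99 CPM in spleen. Reads were nearly absent from mLN replicates 1 and 2 and present in all spleen libraries. The fitted log2 fold change was -4.78 ± 0.61 (edgeR adjusted p = 4.97e-06), and it was -7.04 without mLN replicate 3, since it depends on how near to 0 the mLN libraries are. The gene passed the TPM limit and the filter on counts through the spleen group alone, so its direction is a description.

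By TPM the groups of Slc40a1 overlapped, at 0, 0.03 and 2.43 TPM in mLN and 2.14, 2.27 and 1.91 TPM in spleen, and the gene was not called on centred TPM values (limma adjusted p = 0.0998). RSEM's mean transcript length for the gene was 523 nt in mLN replicate 3 and 3370 to 3392 nt in spleen libraries, and the 9 counts of that library became a high TPM over the short length. Beside Slc40a1, 7 of 8 tested macrophage and monocyte markers were called lower in mLN, their list of 15 summing to 3.30 to 5.30 CPM in mLN and 40.9 to 45.4 CPM in spleen. In mLN libraries 3 of the 15 were at 0, among them Spic and Cd5l, which mark red pulp macrophages. The part of such cells in the Slc40a1 result was not tested.

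**Figure D4:**
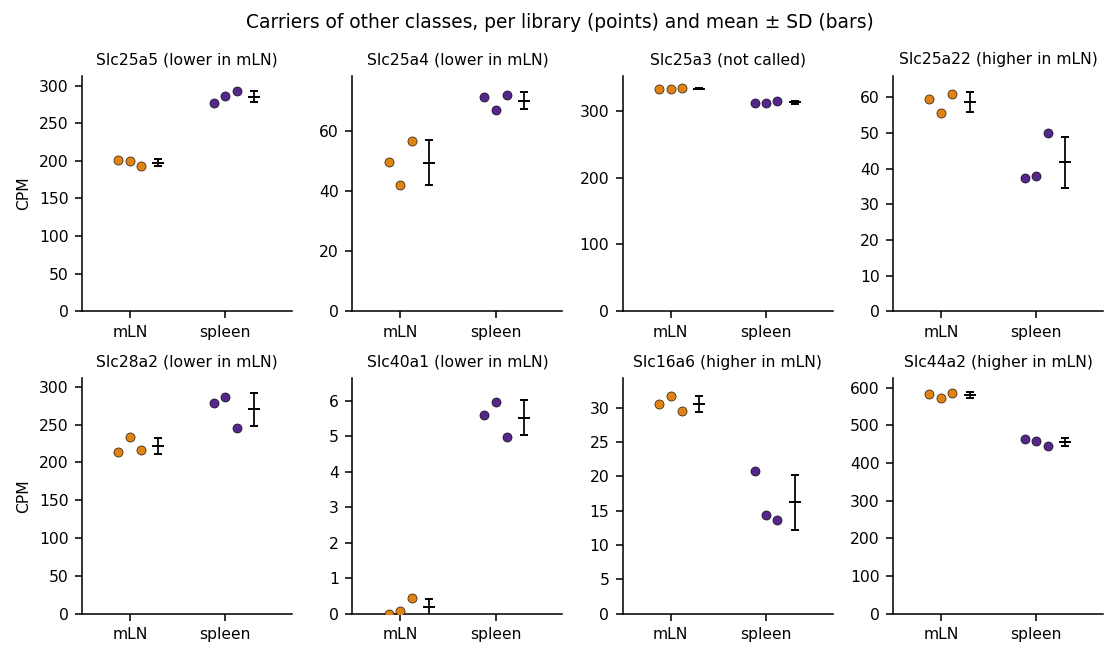
CPM (vertical axis, from 0) of 8 carriers of other classes, with 1 point per library and a bar for the mean ± SD of 3 libraries, mLN on the left and spleen on the right. Slc25a5 and Slc25a4 lie lower in mLN, Slc25a3 differs little, and Slc40a1 is close to 0 in mLN and between 4.99 and 5.96 CPM in spleen.

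The smaller classes held few calls. Of 6 genes in the class of lipids, bile acids and acetyl-CoA, Slc10a3 and Slc10a7 were called lower in mLN, at -0.41 ± 0.15 and -0.38 ± 0.13 on the log2 scale (edgeR adjusted p = 0.050 and 0.0323). Both were placed in this class by family number, and their own substrates were not examined. Of all genes tested, 13.5% were called lower. Slc10a3 shares 12.8% of its exon bases with Ubl4a on the same strand and lost its call without any 1 library except spleen replicate 1 (adjusted p up to 0.226), and Slc10a7 lost its call without mLN replicate 3 or spleen replicate 1 (up to 0.138). The fatty acid carrier Slc27a4 was not called (0.13 ± 0.11). Of 4 carriers of peptides, vesicles and lysosomes 0 were called, with Slc17a9, which loads vesicles with ATP, at 52.1 ± 4.95 CPM in mLN and 51.6 ± 1.37 CPM in spleen (SD, n = 3 each). The scaffold Slc9a3r1 was higher in mLN by 0.22 ± 0.07 (edgeR adjusted p = 0.021) and lost its call with the GC trend removed (0.0048, adjusted p = 0.949) and without mLN replicate 3 or spleen replicates 1 or 2 (up to 0.142).

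The calls were counted again without each library and with the trends on length and GC content removed. Of the 45 called genes, 20 kept their call without each of the 6 libraries in turn, 13 of them higher and 7 lower, and 15 of these also kept it with the length trend removed and with the GC trend removed. Among the 10 higher ones were Slc7a5, Slc7a1, Slc38a1, Slc6a6, Slc16a6, Slc25a22, Slc37a1, Slc44a2 and Slc41a1, and the 5 lower ones were Slc25a5, Slc25a4, Slc28a2, Slc4a7 and Slc40a1. Of these, Slc40a1 had passed the TPM limit and the filter on counts through the spleen group alone, so its kept call is a description. With the length trend removed 26 of the 45 kept their call, and those lost, at adjusted p of 0.0643 to 0.907, included Slc1a5, Slc36a1, Slc16a10, Slc25a17, Slc35b3, Slc35c1, Slc35e2 and Slc10a3 beside those given above. With the GC trend removed 29 kept it, and those lost, at adjusted p of 0.0531 to 0.949, included Slc1a5, Slc3a2, Slc36a1, Slc38a10, Slc25a17, Slc25a33, Slc25a40, Slc35a5, Slc35c1, Slc19a1, Slc39a3 and Slc10a7. Amino acid carriers made up 4 of the 10, and the adenine nucleotide exchangers 2 of the 5.

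Slc25a23, a calcium-dependent carrier of Mg-ATP, was higher in mLN by 0.36 ± 0.11, Slc12a9 by 0.39 ± 0.14, Slc26a2, a sulfate carrier, by 0.32 ± 0.11 with overlapping groups, and Slc35e3 by 0.59 ± 0.22 on the log2 scale (edgeR adjusted p = 0.0146, 0.0421, 0.0366 and 0.0484). Slc25a23 lost its call without mLN replicates 2 or 3 or spleen replicates 1 or 2 (adjusted p up to 0.102), Slc12a9 without mLN replicates 1 or 3 or spleen replicates 1 or 3 (up to 0.21), Slc26a2 without mLN replicates 1 or 2 or spleen replicates 2 or 3 (up to 0.188), and Slc35e3 without any 1 library except spleen replicate 3 (up to 0.213).

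**Figure D5:**
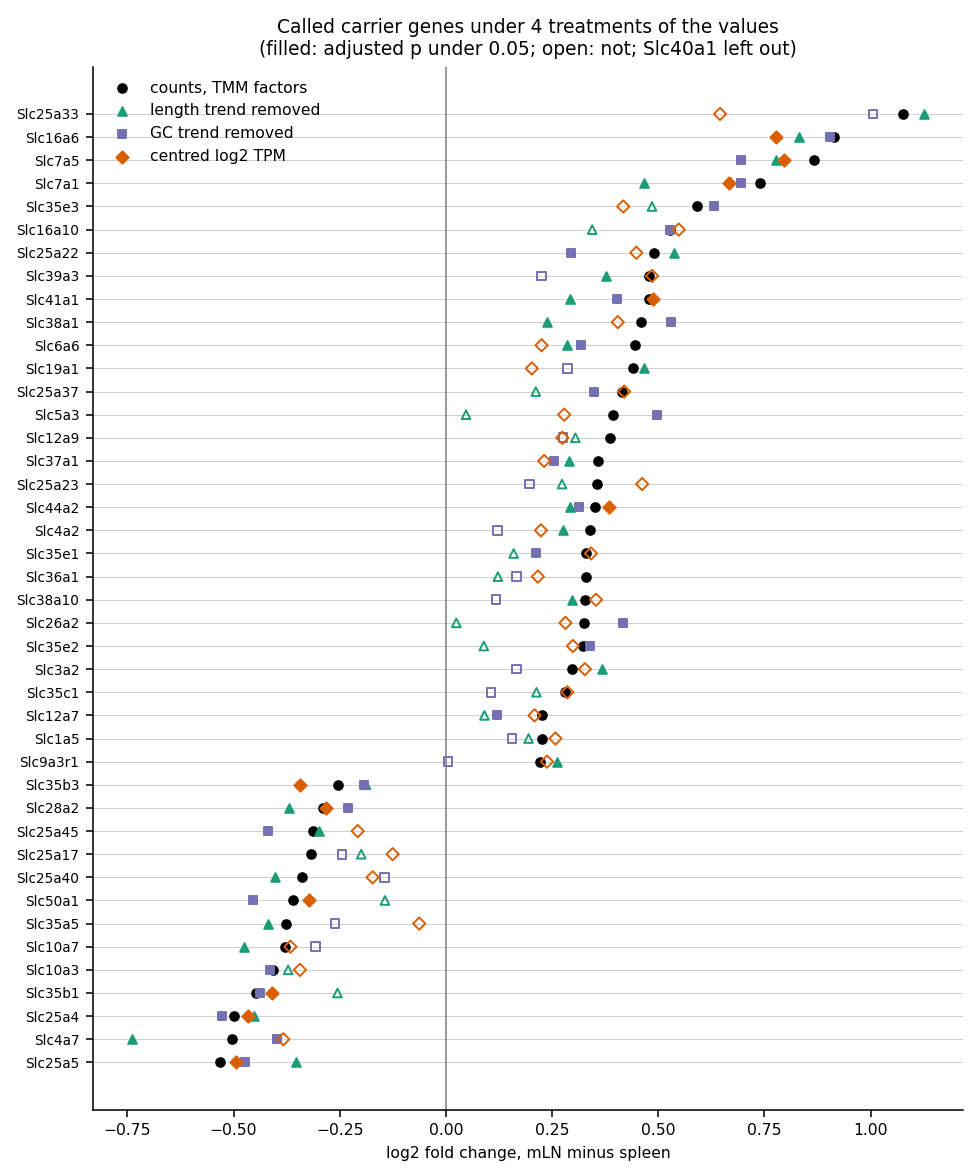
Log2 fold change, mLN minus spleen (horizontal axis), of 42 of the 45 called genes, 1 row per gene, from counts with TMM factors (circles), with the length trend removed (triangles), with the GC trend removed (squares) and from centred log2 TPM (diamonds). Filled marks have an adjusted p under 0.05, Slc40a1 is left out for its scale, and the other called genes left out are not reported here. Slc7a5 and Slc7a1 are filled in all rows of marks and lie between 0.47 and 0.87, Slc25a5 lies between -0.53 and -0.35, and many marks near 0.3 are open in at least 1 treatment.

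Transport genes outside the Slc symbols were set beside the carriers, in lists drawn up with earlier results of these data known. Of solute carrier family members that go by other names, 6 of 35 tested were higher in mLN and 3 lower, beside 16.1% higher and 13.5% lower of all genes tested, with a median log2 fold change of -0.03. Mpc1, a subunit of the mitochondrial pyruvate carrier, stood at 16.9, 19.1 and 15.3 CPM in mLN, against 27.1, 25.6 and 26.2 CPM in spleen. All mLN libraries were lower, at -0.62 ± 0.14 on the log2 scale (edgeR adjusted p = 0.00136), and with the length trend removed Mpc1 had -0.34 and was not called (adjusted p = 0.0861). Nipal1, a magnesium carrier, had -0.79 ± 0.18 and its relative Nipal3 0.30 ± 0.08, and Mfsd4a had 0.50 ± 0.10 (edgeR adjusted p = 0.00176, 0.0101 and 0.000471). Nipal3 was not called with the length trend removed (0.10, adjusted p = 0.425), with the GC trend removed (0.15, adjusted p = 0.106) or without spleen replicate 1 (0.23, adjusted p = 0.0799). Without spleen replicate 1 or 2 the list held 2 higher calls, against 3 with upper-quartile factors and 0 on centred TPM.

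Partners of carriers and the ion pumps that feed them had 7 higher and 6 lower calls of 25 tested, beside 16.1% higher and 13.5% lower of all genes. The calcium pumps of the endoplasmic reticulum Atp2a3 and Atp2a2 were higher in mLN by 0.53 ± 0.06 and 0.47 ± 0.07, and Atp13a3, a polyamine pump, by 0.47 ± 0.07 on the log2 scale (edgeR adjusted p = 1.97e-06, 2.53e-05 and 2.65e-05). Emb, a chaperone of monocarboxylate carriers, was lower in mLN, at 275.1, 255.3 and 243.7 CPM in mLN, against 360.6, 359.2 and 354.9 CPM in spleen. Its groups were far apart, at -0.47 ± 0.06 (edgeR adjusted p = 4.91e-06), while the related chaperone Bsg had -0.04 ± 0.08 and was not called. Atp1b3, a chain of the sodium pump, was lower, at -0.26 ± 0.05 (edgeR adjusted p = 0.00106).

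ABC transporters, which use ATP directly, had 9 higher and 2 lower calls of 23 tested, beside 16.1% higher and 13.5% lower of all genes, with a median log2 fold change of 0.21. Tap2, which moves peptides into the endoplasmic reticulum for loading on MHC class I, was higher by 0.52 ± 0.07 and Abcg1, a cholesterol exporter, by 0.60 ± 0.08 (edgeR adjusted p = 4.1e-06 and 4.52e-06). Abca2 and Abca3 were higher by 0.43 ± 0.08 and 0.42 ± 0.08 on the log2 scale (edgeR adjusted p = 0.000294 and 0.000672). With the length trend removed the list held 3 higher calls, and Abca2 and Abca3 were not among them (adjusted p = 0.0579 and 0.16), and on centred TPM it held 2. Without mLN replicates 2 or 3, or without any 1 spleen library, it held 1 lower call.

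Regulators known to act on carrier genes had 7 higher and 3 lower calls of 21 tested, beside 16.1% higher and 13.5% lower of all genes, so the lower calls were about as frequent as elsewhere. Myc, which is known to raise Slc7a5 and Slc1a5 in activated T cells, stood at 91.5, 96.6 and 110.3 CPM in mLN, against 60.1, 59.4 and 60.3 CPM in spleen. The spleen libraries were nearly equal and below all mLN libraries, and the log2 fold change was 0.73 ± 0.09 (edgeR adjusted p = 2.29e-06). Srebf1 and Srebf2, regulators of lipid synthesis, were higher by 0.67 ± 0.10 and 0.42 ± 0.07, and Foxo1, a factor of quiescence, by 0.44 ± 0.06 (edgeR adjusted p = 3.04e-05, 9.08e-05 and 7.45e-06). With the length trend removed Foxo1 was not called (0.12, adjusted p = 0.102). Txnip, which restrains glucose uptake, was at 964.5, 957.7 and 952.9 CPM in mLN, against 1123, 1135 and 1098 CPM in spleen, and was lower, at -0.22 ± 0.05 (edgeR adjusted p = 0.00211). Without spleen replicate 1 the list held 1 lower call. Whether any of these regulators acted on the carriers was not tested.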

How the data were processed

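RNA sequencing of polyadenylated RNA, prepared with a directional kit per the labels' protocols, was deposited for 3 mLN and 3 spleen libraries. The submitters' processing notes name STAR, RSEM and mm10. Versions, the gene annotation and the strand option of RSEM were not given in the sources used here. Per the file headers, the deposited values include RSEM's expected counts, which estimate the reads of a gene and are not normalized. The deposited TPM and FPKM values were made by the authors from effective lengths, per the file headers, and FPKM was used only for its sums. The deposited transcript lengths are in nucleotides per the file headers.

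Symbols were given to 55141 of 55487 identifiers, and coordinates, biotypes and GC content came from GENCODE vM21 (GRCm38). Promoters came from RefSeq (GRCm38.p6), with 124 of 166 carriers matched. Expected counts were rounded to whole numbers, filtered with filterByExpr to 12486 genes and scaled by TMM factors. Groups were compared by edgeR's quasi-likelihood test (two-sided, robust), whose model held the organ alone, and p-values were adjusted by Benjamini and Hochberg over all genes with a threshold of 0.05. Scripts ran under R 4.3.3 with edgeR 4.0.16, DESeq2 1.42.0 and limma 3.58.1, and under Python 3.11.15 with pandas 2.3.3, matplotlib 3.10.9 and numpy 2.4.6. The test was also run on simulated data. Alternatives were DESeq2, limma-voom, upper-quartile and RLE factors, limma on log2 TPM with and without centring, other filters, the replicate block, removal of length or GC trends (loess span 0.3), a threshold of 0.01, each library left out, and other TPM limits.

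The members, classes and lists were chosen with earlier results of these data known. Genes were named by size of difference (up to 10 called in each direction with a mean of at least 5 TPM and no overlap), by class (3 with the smallest p and 3 with the highest TPM), by list (4 with the smallest p) and by nearness to the limit (5 on each side). Other genes, such as Slc3a2, Slc36a1, Slc7a6, Slc43a2, Slc38a9, Slc25a33, Slc25a45, Slc25a23, Slc12a9, Slc26a2, Slc35e3, Slc2a1, Slc2a3, Slc7a11, Bsg, Atp1b3 and Txnip, were chosen after their values were seen. A few genes that these rules name are not reported here. Replicate pairs differed by more than sampling noise (chi-square per degree of freedom 5.59 to 11.8), and none was treated as a repeat.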

Additional observations from a re-analysis of the deposited data

How the results depend on the processing

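The counts of carriers called higher (31) and lower (14) in mLN stayed within 1.5 times under DESeq2, limma-voom, upper-quartile and RLE factors, both other filters, removal of the length or GC trend, the omission of mitochondrial and ribosomal protein genes, TPM limits of 0.5 and 2 and, chosen after seeing the data, the omission of the 3 genes named after a carrier. They moved to 6 higher and 8 lower on centred log2 TPM plus 1, to 6 and 7 with a pseudocount of 0.1, and to 15 and 7 at a threshold of 0.01, and log2 TPM plus 1 left 2 lower. Without each library in turn 19 to 28 were higher and 8 to 13 lower. The split over all 12486 genes tested moved too, to 1692 higher and 2046 lower with upper-quartile factors. It was 798 and 947 on centred log2 TPM plus 1. On log2 TPM plus 1, where the median of all genes tested was 0.21, the signs of Slc35a5 (0.18), Slc25a40 (0.0739), Slc25a17 (0.12) and Slc25a45 (0.04) turned. After each library was centred they were negative again, at -0.06, -0.17, -0.13 and -0.21. The cause was not tested. Over 85 named genes and 19 alternatives, 1416 of 1607 values kept the call or its absence, 84 of these with another sign and no call in either fit, while 169 lost the call, 19 gained it and 3 turned (Slc25a45 is not among the 85). Same-numbered replicates had correlations of 0.079, 0.033 and 0.138 after group means were taken out. With 3 libraries per group these values cannot decide whether the numbers pair the samples. With the replicate number as a block, 43 carriers were higher and 16 lower, and 44 of the 45 calls were kept. Over all genes tested the block gave 2566 higher and 2140 lower, against 2010 and 1689 without it. At 3 libraries per group, differences near the median standard error of 0.15 were not detectable, and larger ones could go uncalled as well.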

Other observations

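Of the 203 solute carrier genes below 1 TPM, 16 passed the filter on counts. By edgeR's quasi-likelihood test 0 were called higher in mLN and 2 lower, beside 16.1% higher and 13.5% lower of all genes tested. At an unadjusted p under 0.05, and by DESeq2 or limma-voom, 0 were higher as well. Slc11a1, an iron and manganese carrier of macrophage phagosomes, had 3, 0 and 2 expected counts in mLN libraries, against 24, 23 and 11 in spleen libraries (edgeR adjusted p = 0.00468). Slc7a11, the cystine and glutamate exchanger, had 5, 2 and 4 counts in mLN libraries, against 10, 24 and 14 in spleen libraries (edgeR adjusted p = 0.043). Both stood near the floor of 3 counts in mLN libraries, so the size of the difference is uncertain. With so few counts in mLN, both passed the filter on counts through the spleen group alone. Their direction is therefore given as a description. Macrophage and monocyte markers summed to 3.30 to 5.30 CPM in mLN and 40.9 to 45.4 CPM in spleen, and their part in these values was not tested.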
